A study of Homo sapiens with 24 samples.

Results

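The replication-dependent histone genes are the genes from which a dividing cell makes the bulk of its core and linker histones. They were taken as every row of the deposited table whose Ensembl identifier carries an H1-1 to H1-6, H2AC, H2BC, H3C or H4C symbol in GENCODE 44, which gave 67 of 43037 genes. The symbols comprised 6 H1, 15 H2A, 18 H2B, 13 H3 and 15 H4 genes. H2AC18 and H2AC19 also carry such symbols and were not analysed here. Of the 67 genes, 55 reached 5 CPM (tags per 1000000 tags of the library) in at least 1 library and entered the tests beside 12327 genes in all, themselves included. Of these 55, 43 reached that level in each of the 8 groups, 12 only in some groups, and 0 in 1 group alone. The other 12 were read at low level or not at all, 8 of them with at most 3 tags in any library.

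RNA levels were measured by CAGE-Seq, which counts the 5′ ends of capped transcripts as tags. Transcription and RNA stability cannot be told apart in them. A transcript gives 1 tag whatever its length, so CPM can be compared between genes. The 4 glioblastoma lines (U87MG, T98G, U251MG and DBTRG-05MG) were stably transduced by lentivirus and selected with puromycin. The "Vec" variant of each line carried a blank puromycin vector and the "WWOX" variant carried WWOX, a tumor suppressor, under the CMV promoter; both arms therefore share transduction and puromycin. Each of the 8 groups held 3 biological replicates, 24 libraries in all. Each variant is 1 transduced and selected population, so an effect of WWOX and a property of that population cannot be told apart. T98G was grown in MEM, DBTRG-05MG in RPMI and the other lines in EMEM, so medium and line cannot be told apart either.

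Histone proteins package DNA, and a cell must supply them at the pace at which it replicates its genome. Transcription of these genes is therefore bound to S phase through the coactivator NPAT, and their mRNAs end not in a poly(A) tail but in a stem-loop that the protein SLBP binds. H2A, H2B, H3 and H4 form the nucleosome core, and H1 binds the linker DNA. Most of the genes lie in clusters, and many H2A and H2B genes stand back to back with 1 short region between their starts. The genes of a class encode nearly the same protein, so the RNA of 1 gene can fall while the class is still supplied by others.

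The stem-loop is shown first, since it defines these genes at the RNA level. A stem of 6 pairs around a loop of 4 bases was found in the canonical GENCODE 44 transcript of all 67 genes, with 1 G-U pair in 2 of them and Watson-Crick pairs throughout in 65. It lay within 20 bases of the 3′ end in 66. In H2BC21 the match lay 1729 bases from the end of that transcript. The most frequent form was shared by 38 genes of H1, H2A, H2B and H3 and by no H4 gene, and another form occurred in 10 genes, all H4. Capitals mark the bases of the stem and lower case the loop.
H1, H2A, H2B and H3 form: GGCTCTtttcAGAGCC
H4 form: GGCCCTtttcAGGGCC

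The genes fell into 6 positions of hg38. On chromosome 6 there were 34 genes between starts at 25726562 and 26285534 (distal), 5 between 27132795 and 27147106 (middle) and 16 between 27807929 and 27893425 (proximal). On chromosome 1 there were 9 genes between 149812370 and 149887965 (1q21) and 2 between 228457873 and 228458103 (1q42). H4C16 stood alone on chromosome 12, at 14771131. There were 13 divergent pairs with starts 194 to 979 bases apart (median 240), of which 12 joined an H2A and an H2B gene. The first 75 bases of the transcript, which is the length of a read, occurred unchanged in another gene of the set for 5 genes, among them H4C11 with H4C12 and H4C14 with H4C15. Tags of those genes are uncertain. Apart from these, the closest pair matched at 71 of 75 positions, and the median best match was 31. Positions were compared from the annotated start without alignment, so a shifted start hides likeness between genes. These numbers therefore do not show that the reads of a gene map to it alone.

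Promoters of 250 bases before to 50 after the start were taken from RefSeq (GRCh38.p14) for 61 of the 67 genes. H2AC12, H3C11, H3C12, H4C1 and H4C3 had no entry, and the H3C4 window was left out because it lay 2007 bases from the GENCODE 44 start of that gene. The windows were searched on both strands for TATAAA, the TATA box core; CCAAT, the CCAAT box core; and ATTTGCAT, the octamer bound by OCT1. TATAAA occurred in 65.6% of the histone promoters and in 11.5% of all 35116 promoters. CCAAT occurred in 83.6% and 34.6%, in every H1, H2A, H2B and H3 promoter and in 3 of 13 of H4. ATTTGCAT occurred in 41.0% and 1.77%, in 11 of 14 H2A and 14 of 18 H2B promoters. It occurred in 0 of 10 H3, 0 of 6 H1 and 0 of 13 H4 promoters. Windows of close divergent partners overlap, and both strands were searched. A shared site is then counted for both genes, as in H2AC11 with H2BC11, so the motif counts are not all of separate sites. The promoters of 4 genes that passed the WWOX-versus-Vec test are printed: H2BC6 and H4C6, which had the largest differences in U87MG and DBTRG-05MG, H2BC12, which fell with H2AC12 in T98G, and H4C4, the neighbor of H2BC6. Capitals mark the searched motifs on either strand, and TATAAA can overlap its own reverse complement. The H2BC12 window, chr6:27146809-27147108 on the minus strand, also holds the annotated start of H2AC12, at 27147106 on the plus strand. H2BC6 is at chr6:26183511-26183810 (plus), H4C4 at chr6:26189063-26189362 (minus) and H4C6 at chr6:26240143-26240442 (plus).
H2BC12: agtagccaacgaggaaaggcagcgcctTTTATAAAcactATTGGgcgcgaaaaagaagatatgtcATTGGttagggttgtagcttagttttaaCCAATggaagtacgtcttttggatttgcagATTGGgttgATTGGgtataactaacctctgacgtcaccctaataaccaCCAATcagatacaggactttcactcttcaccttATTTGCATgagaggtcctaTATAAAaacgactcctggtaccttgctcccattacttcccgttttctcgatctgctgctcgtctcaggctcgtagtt
H2BC6: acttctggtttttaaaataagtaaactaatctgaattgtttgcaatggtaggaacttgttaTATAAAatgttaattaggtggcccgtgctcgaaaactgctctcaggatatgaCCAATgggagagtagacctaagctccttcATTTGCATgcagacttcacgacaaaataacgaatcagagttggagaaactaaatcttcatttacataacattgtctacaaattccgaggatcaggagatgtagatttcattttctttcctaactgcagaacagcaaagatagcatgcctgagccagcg
H4C4: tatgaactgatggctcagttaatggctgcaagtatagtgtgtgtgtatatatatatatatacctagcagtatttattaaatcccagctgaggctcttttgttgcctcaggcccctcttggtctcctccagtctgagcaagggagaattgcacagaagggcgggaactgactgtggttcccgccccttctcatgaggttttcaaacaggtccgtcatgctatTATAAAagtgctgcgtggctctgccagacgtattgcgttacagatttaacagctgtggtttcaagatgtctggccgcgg
H4C6: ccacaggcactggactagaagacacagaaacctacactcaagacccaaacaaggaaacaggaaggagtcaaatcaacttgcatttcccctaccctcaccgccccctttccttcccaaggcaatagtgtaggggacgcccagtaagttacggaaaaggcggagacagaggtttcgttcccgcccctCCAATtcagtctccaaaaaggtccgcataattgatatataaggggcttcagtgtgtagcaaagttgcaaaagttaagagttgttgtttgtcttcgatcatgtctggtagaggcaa

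The libraries held 10756072 to 16953689 tags, so 3 tags, the most that a count of 0 allows, correspond to 0.177 to 0.279 CPM (counting error only). WWOX itself was read at 61.0 to 66.0 CPM in the U87MG WWOX libraries and at 33.9 to 40.1 CPM in U87MG Vec, and at 28.0 to 32.0 against 20.4 to 22.2 CPM in DBTRG-05MG. In T98G the ranges overlapped. In U251MG the Vec libraries held 31.4 to 36.8 CPM, and the library labelled U251MG WWOX replicate 2 held 17.4 CPM, below every Vec library of its line, against 56.7 and 38.0 CPM in the others. It is counted as WWOX, as labelled, and whether its cells carry the transgene was not tested. WWOX did not pass the test in any line. A transcript begun at the CMV promoter starts in vector sequence, so its tags need not be counted at WWOX. Of 10 glioma and glial markers 9 entered the tests, and the summed level of 6 markers of other cell types was at most 1.05 CPM in any library.

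There were 4 libraries that stood apart in total histone output. The 67 genes together made up 2.86% of the tags of U87MG Vec replicate 1 and 10.8% of replicate 2, a spread of 3.76-fold within 1 group. In U87MG WWOX replicate 1 they made up 1.99%, against 5.08% and 6.75% in the others. In U251MG WWOX replicate 1 they made up 0.883%, against 3.31% and 3.94% in the other libraries of that group. The main histone values that move with 1 of these, or with the library labelled U251MG WWOX replicate 2, are also given without it.

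The summed level of the histone genes was lower on average in the WWOX variant of every line, but the libraries of the 2 variants overlapped in 3 of the 4 lines. In U87MG the Vec libraries held 28609.5, 107657 and 62453 CPM and the WWOX libraries 19880.0, 50802 and 67471 CPM, a ratio of means of 0.695. That ratio was 1.01 without U87MG Vec replicate 2, 0.893 without U87MG WWOX replicate 1 and 0.541 without U87MG Vec replicate 1. In T98G they held 43754, 50959.5 and 51264 CPM (Vec) and 28248, 53480.2 and 33261 CPM (WWOX), a ratio of 0.788. In these unscaled CPM 1 WWOX library was above all T98G Vec libraries; after TMM scaling it was below 1 of them. In U251MG they held 37676, 65168 and 56308 CPM (Vec) and 8825, 33111 and 39377 CPM (WWOX), a ratio of 0.511. It was 0.683 without U251MG WWOX replicate 1 and 0.454 when the library labelled U251MG WWOX replicate 2 was left out. In DBTRG-05MG they held 31698.5, 24028 and 41732 CPM (Vec) and 16240.4, 22817 and 23067 CPM (WWOX), a ratio of 0.637, and every WWOX library was below every Vec library. In bulk RNA, fewer cells in S phase and less histone RNA per cell cannot be told apart.

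Most genes of DNA replication also had log2 fold changes (log2FC, WWOX versus Vec) below 0 without passing the test. The summed level of 30 S-phase and DNA replication genes was 947, 3045 and 2622 CPM in U87MG Vec and 919, 1557 and 1612 CPM in U87MG WWOX, with its lowest Vec value in the library that was lowest in histone genes. In U251MG WWOX it was 424, 744 and 1749.8 CPM, again lowest in replicate 1. Of the 26 tested S-phase genes, 0 passed the limma test in any line, with log2FC below 0 for 25, 20, 26 and 24 of them (U87MG, T98G, U251MG, then DBTRG-05MG, an order kept for every run of 4 values). Their median log2FC was -0.53, -0.27, -0.67 and -0.55, beside -0.51, -0.37, -1.38 and -0.57 for the 55 histone genes. Of 19 tested G2 and M phase genes 0 passed, with medians from -1.37 in U251MG to -0.12 in U87MG. Without U251MG WWOX replicate 1 the U251MG medians were -0.10 for S-phase genes, with 15 of 26 below 0, and -0.40 for G2 and M phase genes. The part of these genes, or of the cell cycle, in the histone result was not tested.

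**Figure D1:**
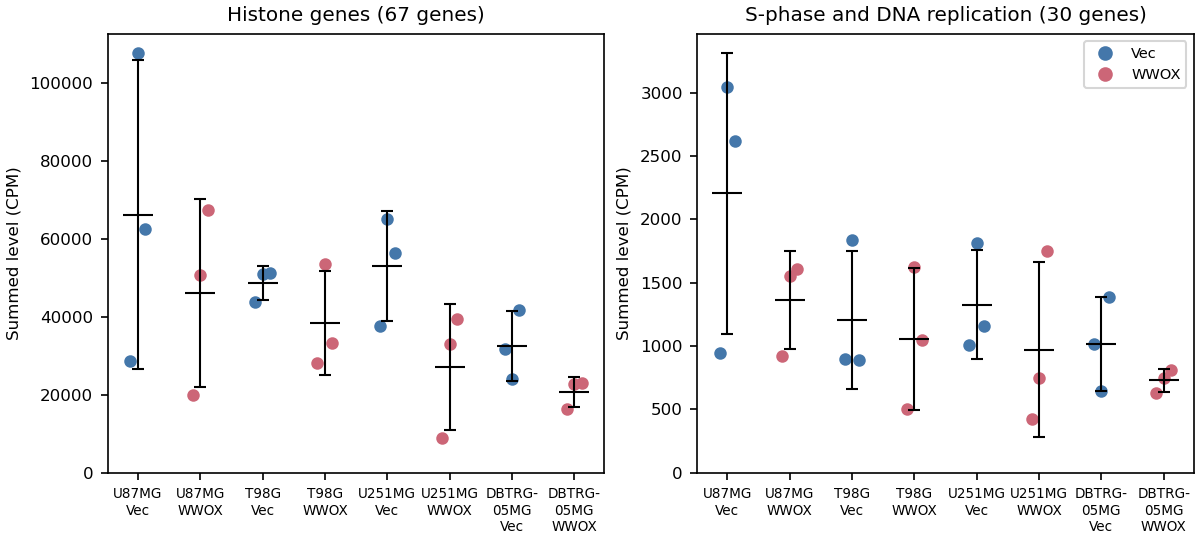
Summed level in CPM of the 67 histone genes (left) and of 30 S-phase and DNA replication genes (right) in each library (points), by group (Vec blue, WWOX red), with the mean (bar) and SD (n = 3 libraries). U87MG Vec spans 28609.5 to 107657 CPM in histone genes, and U251MG WWOX replicate 1 is the lowest library in both panels.

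The largest differences in the mean share of a class within the histone tags between the variants of a line were in U251MG. H2A gave the largest share in U87MG Vec, 30.1% ± 2.07 (SD, n = 3), and 30.2% ± 0.900 in U87MG WWOX. H2B gave 24.0% ± 0.0828 and 23.7% ± 0.180 there. In U251MG the H3 share was 20.4% ± 2.93 in Vec and 13.9% ± 7.78 in WWOX, and the H4 share 23.7% ± 4.15 and 31.7% ± 8.10. The lowest H3 share, 5.30%, and the highest H4 share, 39.8%, were both in U251MG WWOX replicate 1, the library with the least histone RNA. The other libraries of that group held 16.1% and 20.4% for H3 and 31.6% and 23.6% for H4.

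The most abundant genes of each class were read in every line, and none of these 10 passed the test in any line. They were H1-2 and H1-5 (mean over 24 libraries 2079.5 and 1440.4 CPM), H2AC6 and H2AC20 (2070.3 and 1766 CPM), H2BC4 and H2BC21 (1389.7 and 1160.2 CPM), H3C3 and H3C8 (1869 and 1463 CPM), and H4C5 and H4C8 (2299 and 1925 CPM). H4C5, which encodes the same H4 protein as most other H4 genes, had the highest mean of all. Its level was 4236, 4241 and 4148 CPM in U251MG Vec, where the libraries lay close together, and 1717, 3643 and 2623 CPM in U251MG WWOX, all below Vec on this scale. The log2FC was -0.74 ± 0.43 (SE), with an adjusted p of 0.539 by limma. By fold H3C8 had the widest range of these 10 genes, 218-fold, from 20.6 CPM in U251MG WWOX replicate 1 to 4492 CPM in U87MG Vec replicate 2. H1-5 likewise stood at 30.2 CPM in U251MG WWOX replicate 1 and at 464 and 1038 CPM in the other libraries of that group.

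Against this common level, single genes were on in some lines and off in others. Below 5 CPM in every library of a line was taken as low and 50 CPM or more in all 6 as high. By this rule 24 genes were high in all lines, 12 were low in all lines, and 6 were high in at least 1 line and low in at least 1 other. The 12 low genes included H2AC1 and H2BC1, a divergent pair, and H1-6, a linker histone known from testis. H2AC15, H3C4, H4C7 and H4C15 had 0 tags in all 24 libraries. H4C12, H4C14, H4C15 and H3C15, all among the 12, have first 75 bases that occur in another gene of the set. H3C14, also among the 12, holds those of H3C15. For these genes a low count may reflect reads that map to more than 1 place, which was not tested.

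Among the 6 switching genes, 4 belonged to 2 divergent H2A and H2B pairs. H2AC14 was read at 453 to 3004 CPM in U87MG Vec and at 616 to 816 CPM in T98G Vec, at 4.22 to 12.9 CPM in U251MG Vec and at 0.386 to 1.65 CPM in DBTRG-05MG Vec. H2BC14, its partner, held 293 to 1552, 72.9 to 155.9, 0.730 to 2.39 and 0.322 to 1.45 CPM in the same order. The pair thus ran from high in U87MG and T98G to near the floor in DBTRG-05MG. H2AC25 at 1q42 was read at 64.5 to 119.9 CPM in U87MG Vec and 172 to 251.1 CPM in U251MG Vec, and at no more than 0.156 CPM in T98G Vec and 0.129 CPM in DBTRG-05MG Vec. H2BC26, its partner, held 181 to 192 and 178 to 298 CPM, against at most 0.156 CPM in T98G Vec and 0 tags in DBTRG-05MG Vec. Within both pairs the partners were high in the same lines and low in the same lines. In U251MG H2AC14 and H2BC14 were neither, at up to 29.0 and 5.48 CPM. H2AC14 matches H2AC13 at 71 of its first 75 bases, so its low values are less certain.

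The other 2 switching genes were low in U251MG alone. H3C12 was at most 3.02 CPM in the 6 U251MG libraries, and at 143 to 616 CPM in U87MG Vec, 219.97 to 302 CPM in T98G Vec and 35.7 to 143.6 CPM in DBTRG-05MG Vec. H4C13 was at most 0.398 CPM in U251MG, and at 276 to 616, 274 to 363 and 109 to 143 CPM in Vec of the other lines. Beside them, H4C9 was read at 108 to 140 CPM in U251MG Vec and at no more than 1.09 CPM in any library of another line. H1-1, a linker histone gene, was read at 61.1 to 503 CPM in U87MG Vec and 30.004 to 41.0 CPM in DBTRG-05MG Vec, and below 1 CPM in the other lines. H4C9 and H1-1 missed the 50 CPM rule and were chosen after their values were seen.

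In a limma fit across all genes, the Vec variants of the lines differed at 24 of the 55 tested histone genes (F test, adjusted p under 0.05), beside 66.9% of all genes tested. The share of histone genes, 43.6%, was below that background. The adjusted p was 8.94e-15 for H2BC26, 2.51e-13 for H2AC25, 1.71e-15 for H4C13, 8.47e-11 for H2BC14, 5.24e-10 for H2AC14 and 1.16e-08 for H3C12. These switching genes were picked by their levels in these same libraries, so their p-values are no separate support.

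**Figure D2:**
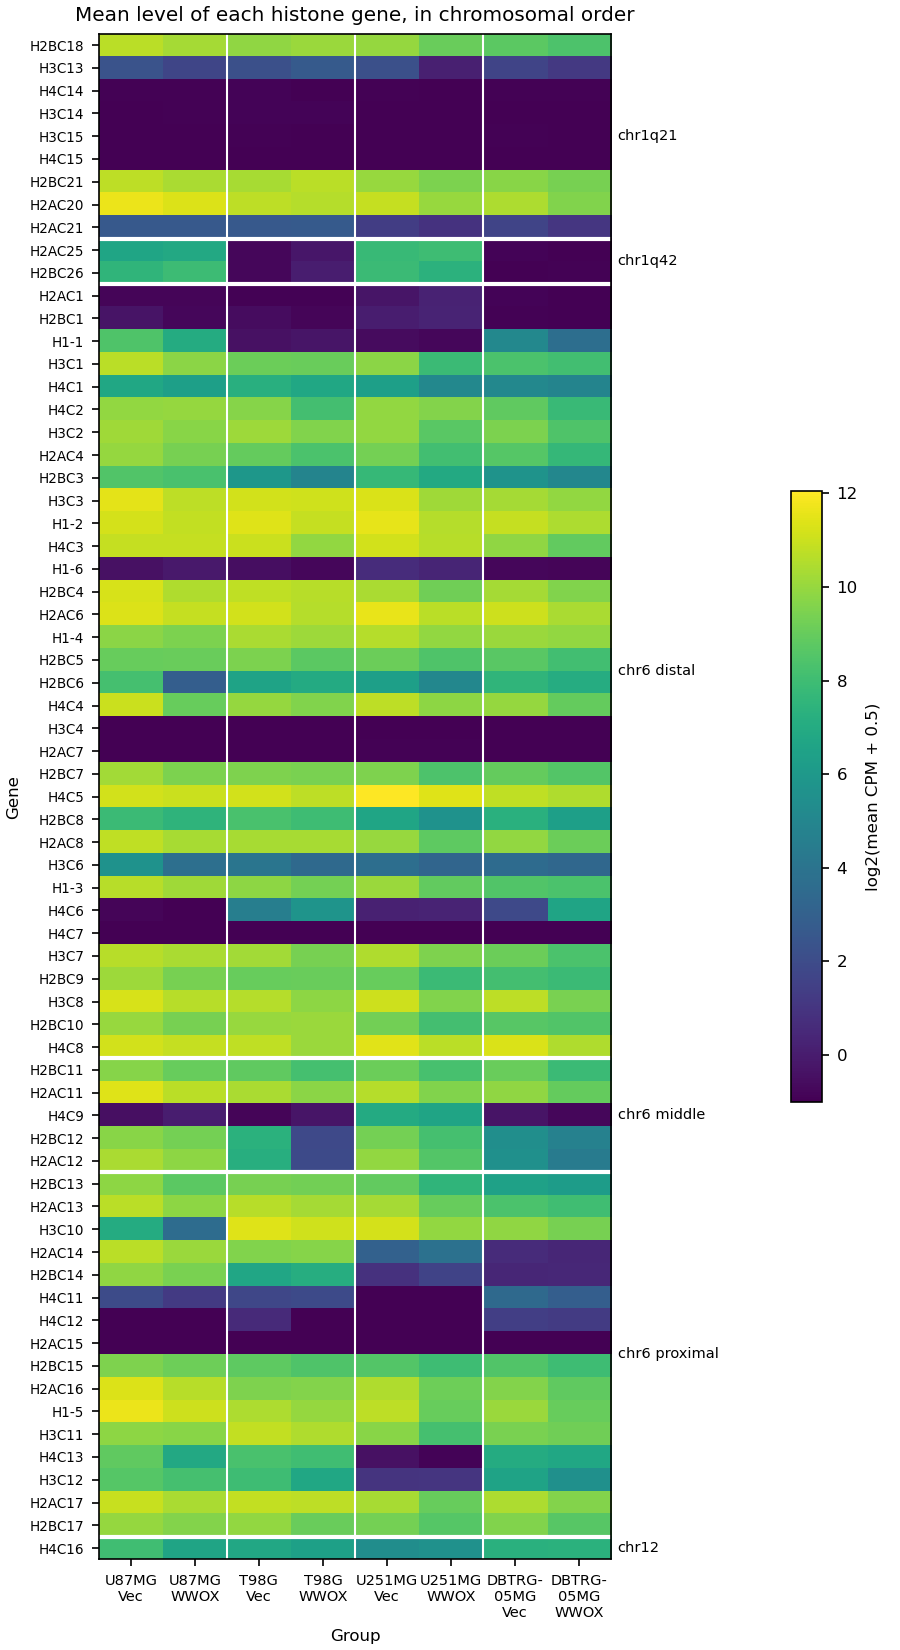
Mean level of each of the 67 histone genes in the 8 groups, as log2(mean CPM + 0.5), with genes in chromosomal order and white lines between clusters. H2AC14 and H2BC14 are dark in DBTRG-05MG, H2AC25 and H2BC26 in T98G and DBTRG-05MG, H3C12 and H4C13 in U251MG, and H2BC12 with H2AC12 turns dark in T98G WWOX.

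The study asked what WWOX changes in each line. Between WWOX and Vec, 5 histone genes fell in U87MG and 2 in T98G, while 1 rose in DBTRG-05MG and 0 passed in U251MG. Differences are log2FC of scaled CPM with 0.5 added, tested by limma with Benjamini-Hochberg adjustment over 12327 genes. Among all genes 3.2%, 1.14%, 0.316% and 1.02% passed in these lines, beside 9.09%, 3.64%, 0% and 1.82% of the tested histone genes. By direction, 1.66% of all genes fell in U87MG, 0.811% fell in T98G, and 0.519% rose in DBTRG-05MG.

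Most histone genes lay below 0 without passing. The log2FC was negative for 52, 42, 50 and 53 of the 55 genes in the 4 lines, beside 50.5%, 54.4%, 49.4% and 49.3% of all genes. It was negative in all 4 lines for 40 genes (72.7%), beside 10.5% of all genes. Genes of the set share their libraries and do not vary independently. The 3 WWOX libraries all lay below the 3 Vec libraries for 7, 10, 13 and 20 genes, which is 12.7%, 18.2%, 23.6% and 36.4% beside 9.69%, 9.26%, 5.01% and 10.4% of all genes. An unadjusted p under 0.05 by limma was found for 8, 4, 29 and 4 of the 55 genes, beside 11.5%, 11.5%, 11.5% and 7.63% of all genes. Counting for each line only the 52, 51, 49 and 48 genes that reached 5 CPM in a library of that line, 50, 41, 46 and 47 lay below 0. Without U251MG WWOX replicate 1 the U251MG median was -0.45, while leaving out the library labelled U251MG WWOX replicate 2 gave -1.75. In U87MG the median was -0.08 without Vec replicate 2 and 0.03 without WWOX replicate 1, with 34 and 24 genes below 0. The U87MG median was thus near 0 without either of these 2 libraries. Without U87MG Vec replicate 1 it was -1.05, with 53 genes below 0.

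**Figure D3:**
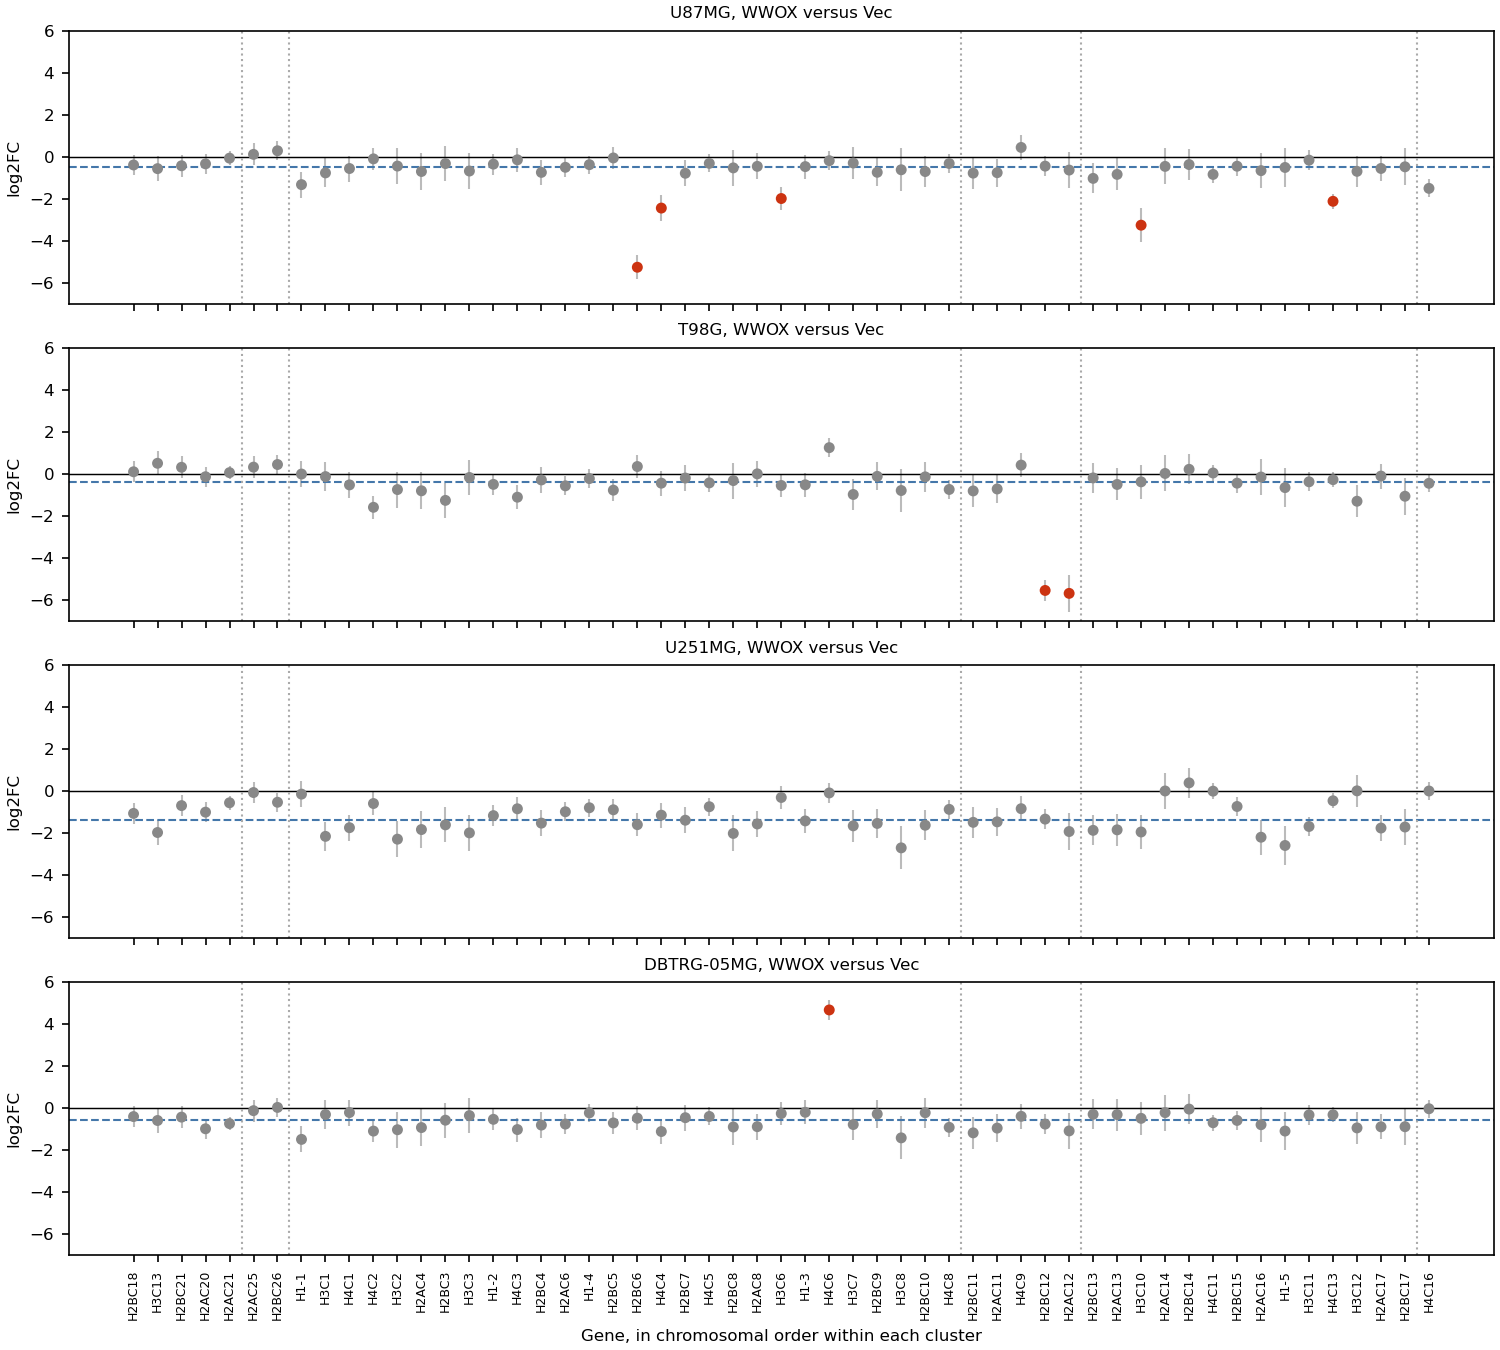
WWOX-versus-Vec log2FC with SE of the 55 tested histone genes in each line, in chromosomal order (dotted lines separate clusters, the dashed blue line is the median, red points passed at an adjusted p under 0.05). Most points sit below 0, with the lowest median, -1.38, in U251MG, and H2BC6 in U87MG, H2AC12 and H2BC12 in T98G and H4C6 in DBTRG-05MG lie far from the rest.

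H2BC6, an H2B gene of the distal cluster (chromosome 6, start 26183761), fell the most in U87MG. Its level was 124, 458 and 294 CPM in U87MG Vec and 3.85, 6.99 and 9.91 CPM in U87MG WWOX. Every WWOX library was over 10 times below every Vec library. The log2FC was -5.26 ± 0.56 (SE), a 38.4-fold fall, with an adjusted p of 1.00e-06 by limma. It was 75.7, 107 and 101 CPM in T98G Vec and 82.7, 157 and 131 CPM in T98G WWOX, where the groups overlapped. In DBTRG-05MG Vec it was 189, 128 and 228 CPM, and 101, 156 and 152 CPM in WWOX, again with overlap. U251MG lay between, with 45.3, 124 and 75.3 CPM in Vec, 7.75, 35.3 and 53.5 CPM in WWOX, and a log2FC of -1.60 ± 0.56 (adjusted p = 0.243 by limma). The effect in U87MG differed from the mean of the other lines by -4.69 ± 0.65 (adjusted p = 5.23e-05 by limma).

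H4C4, an H4 gene and the next gene along at 26189112, also fell in U87MG. Its level was 1227, 3059 and 1817 CPM in Vec and 118, 388 and 1038 CPM in WWOX, without overlap. The log2FC was -2.45 ± 0.60, with an adjusted p of 0.022 by limma. H2BC5, the neighbor on the other side, had a log2FC of -0.06 ± 0.51 and did not pass.

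H3C10, an H3 gene of the proximal cluster, was already low in U87MG Vec at 31.3, 202 and 152 CPM, against 2279 to 2976 CPM in T98G Vec. In U87MG WWOX it was 5.14, 11.2 and 18.6 CPM, below every Vec library, with a log2FC of -3.26 ± 0.80 (adjusted p = 0.0213 by limma). H4C13, the gene that was off in U251MG, was 276, 616 and 483 CPM in U87MG Vec and 55.4, 103 and 196 CPM in WWOX, without overlap. The log2FC was -2.12 ± 0.36 (adjusted p = 0.000531 by limma), and its effect in U87MG differed from that of the other lines by -1.78 ± 0.41 (adjusted p = 0.0178 by limma). Among those lines is U251MG, where H4C13 was at most 0.398 CPM, near the floor, so its effect there is no measured change. H3C6, an H3 gene of low level, was 21.5, 59.0 and 70.6 CPM in Vec and 5.08, 13.3 and 21.3 CPM in WWOX. The groups nearly touched, and the log2FC was -1.99 ± 0.53 (adjusted p = 0.0382 by limma). H3C10, H4C4 and H3C6 no longer passed without U87MG Vec replicate 2, without Vec replicate 3, without WWOX replicate 1 or without WWOX replicate 2; H2BC6 and H4C13 passed in each case. With a separate model for each line H2BC6 alone passed; H4C4 and H3C6 also missed with edgeR (adjusted p = 0.0727 and 0.0601), and H4C13 missed with the histone genes centred on their median in each library (adjusted p = 0.154). H3C6 also missed without DBTRG-05MG Vec replicate 1 and without T98G WWOX replicate 3. The difference of H4C13 from the other lines did not pass without U87MG Vec replicate 2 or 3 or WWOX replicate 1 or 2, nor with edgeR, limma-voom or DESeq2 on recovered tags.

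In T98G the genes that fell were the 2 partners of 1 divergent pair. H2AC12 and H2BC12 face away from each other across the printed region of the middle cluster, with annotated starts at 27147106 (plus) and 27146855 (minus). H2AC12 was 139, 154 and 138 CPM in T98G Vec, where the libraries lay close together, and 6.32, 2.97 and 0.462 CPM in T98G WWOX. The log2FC was -5.69 ± 0.87, a 51.6-fold fall, with an adjusted p of 0.000823 by limma. H2BC12 was 111, 236 and 132 CPM in Vec and 5.21, 2.89 and 1.32 CPM in WWOX. Its log2FC was -5.55 ± 0.49, a 46.8-fold fall, with an adjusted p of 5.03e-07 by limma. For both genes no WWOX library came near a Vec library. Against the mean of the other lines the effect in T98G differed by -4.48 ± 1.00 for H2AC12 (adjusted p = 0.0262) and -4.71 ± 0.57 for H2BC12 (adjusted p = 4.45e-05, both by limma); the former did not pass without T98G Vec replicate 1 or 3 or WWOX replicate 2 or 3 (adjusted p up to 0.135). In U87MG, where the pair was highest, H2AC12 held 410.1, 2222 and 1324 CPM in Vec and 266, 846 and 1624 CPM in WWOX, with overlap. H2AC11 and H2BC11, the other divergent pair of the cluster, had log2FC of -0.72 and -0.81 in T98G and did not pass.

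H4C6, an H4 gene of the distal cluster (start 26240393), was the only one of the 55 genes that rose in a line. It was 3.34, 2.25 and 3.95 CPM in DBTRG-05MG Vec and 85.6, 96.9 and 113 CPM in DBTRG-05MG WWOX. The log2FC was 4.69 ± 0.46, a 25.8-fold rise on this scale, with an adjusted p of 1.19e-06 by limma. In T98G it was 21.8, 9.96 and 38.5 CPM in Vec and 43.5, 86.5 and 31.8 CPM in WWOX, with overlap (log2FC 1.25 ± 0.46, adjusted p = 0.235 by limma). In U251MG it stayed at or below 1.49 CPM. In U87MG it was at most 0.140 CPM, below the floor, so its effect there is not a measured change. The effect in DBTRG-05MG differed from the mean of the other lines by 4.36 ± 0.53 (adjusted p = 3.27e-05 by limma). H4C6 has no exact TATAAA in the printed window, though it has tatataag there. TATAAA occurred in 7 of 13 H4 promoters, so its absence is not particular to H4C6. The H4C6 window has CCAAT, which most H4 promoters lack.

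Across the mean of the 4 lines 6 of the 55 genes passed, beside 1.8% of all genes (0.763% up and 1.04% down). H2AC12 (-2.33 ± 0.43), H2BC12 (-2.02 ± 0.25), H2BC6 (-1.74 ± 0.28), H4C4 (-1.28 ± 0.30) and H4C13 (-0.79 ± 0.18) fell, and H4C6 (1.42 ± 0.23) rose, though H4C6 did not pass here with edgeR, limma-voom or DESeq2 (adjusted p = 0.99, 0.399 and 0.324). H4C13 did not pass here with edgeR or limma-voom (adjusted p = 0.0552 and 0.0624). Line by line, H2AC12 and H2BC12 passed in T98G alone, H2BC6, H4C4 and H4C13 in U87MG alone, and H4C6 in DBTRG-05MG alone. A call in the mean is therefore not a change shown in every line. The mean takes in U251MG, where H4C13 was at most 0.398 CPM, and U87MG, where H4C6 was below the floor. H4C4 no longer passed here without U87MG Vec replicate 2, U251MG Vec replicate 2, T98G WWOX replicate 3, DBTRG-05MG Vec replicate 1 or DBTRG-05MG WWOX replicate 1. The difference of 1 line from the mean of the others passed for 3, 3, 0 and 1 genes, beside 2.39%, 1.53%, 0.422% and 0.982% of all genes. These include H4C6 in U87MG, where it was below the floor and the call is no measured change, and H2BC6 in T98G, a call lost without T98G Vec replicate 1 or 3 or WWOX replicate 2 or 3 (adjusted p up to 0.127). Of the 55 genes, 51 lay below 0, with a median log2FC of -0.74. A test of unequal effects between the lines was passed by 3 genes, H4C6 (adjusted p = 5.15e-05), H2BC12 (7.79e-05) and H2BC6 (0.000278, all by limma), beside 3.48% of all genes; 5 passed it without U251MG WWOX replicate 1, beside 4.52% of all genes. Without the library labelled U251MG WWOX replicate 2 the count in the mean rose to 17, 16 of them down, and in U251MG to 5, while the share of all genes that passed rose to 6.95% and 4.53%. The 5 were H3C11 (log2FC -2.27), H1-4 (-1.41), H3C13 (-2.30), H1-2 (-1.73) and H3C8 (-3.73).

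**Figure D4:**
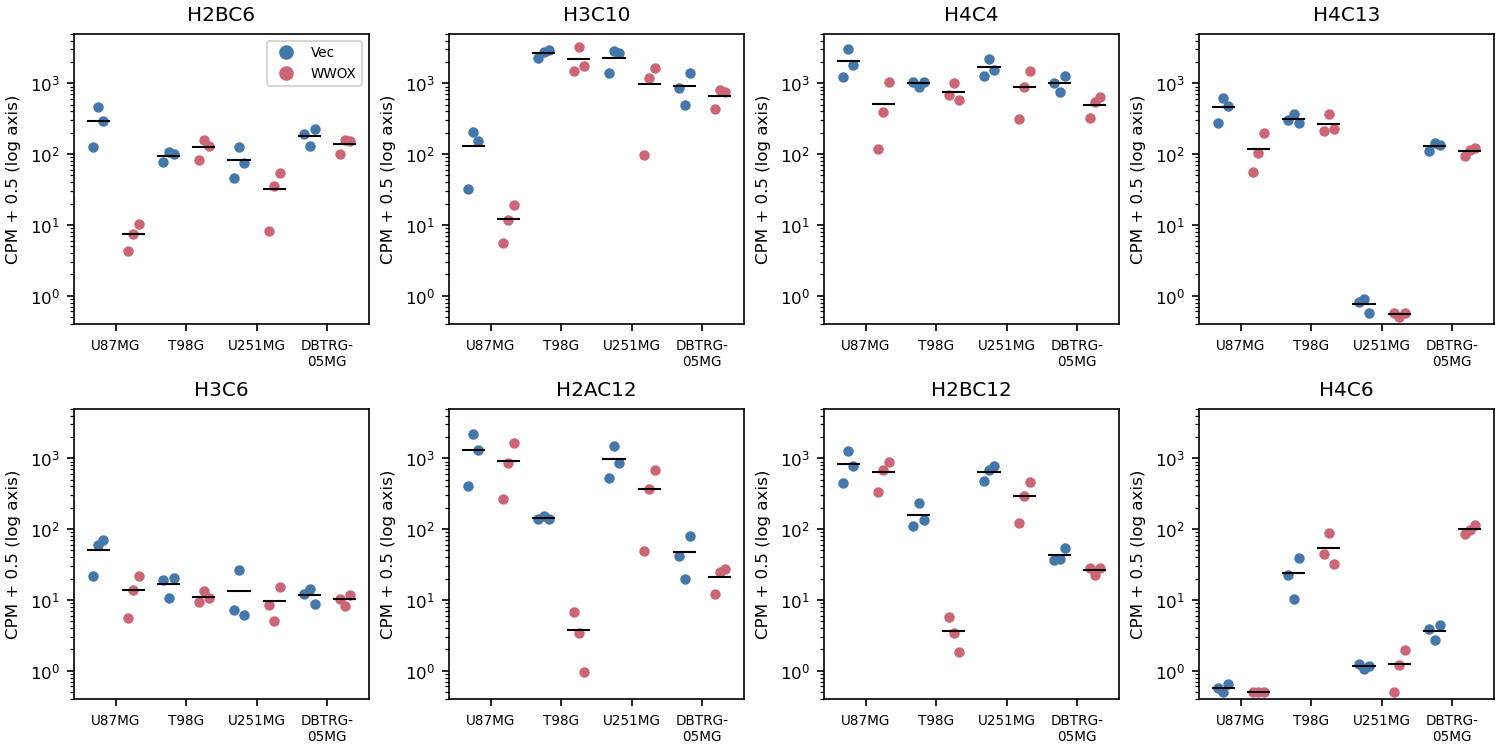
Level in each library (points) of the 8 histone genes that passed the WWOX-versus-Vec test in a line, as CPM + 0.5 on a log axis (Vec blue, WWOX red, bars are means of 3 libraries). H2BC6 is below 10 CPM in all 3 U87MG WWOX libraries, H2AC12 and H2BC12 are below 7 CPM in T98G WWOX, and H4C6 rises to 85.6 to 113 CPM in DBTRG-05MG WWOX.

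Partners of a divergent pair lay at most 0.96 apart in log2FC. Both partners were tested in 10 of the 13 pairs, and both reached 5 CPM in a library of the line in 10, 9, 10 and 8 pairs. Over these the median absolute gap between partners was 0.13, 0.31, 0.35 and 0.14 on the log2 scale. The widest gap was that of H2AC17 and H2BC17 in T98G, at -0.10 and -1.06. H3C7 and H2BC9, 979 bases apart and the only pair without an H2A gene, had -0.98 and -0.12 in T98G. The lengths of the gaps are a description, since both partners are read in the same libraries. Gaps between histone genes that are not partners are not given here, so similarity cannot be called a trait of the pairs.

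**Figure D5:**
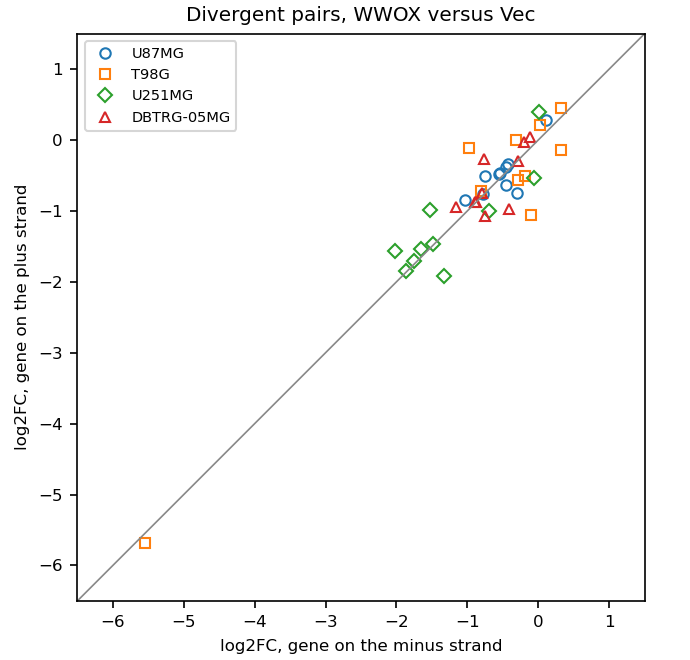
WWOX-versus-Vec log2FC of the minus-strand gene (x axis) and the plus-strand gene (y axis) of the 10 divergent pairs with both genes tested, in 4 lines; the line marks equal values. H2BC12 and H2AC12 in T98G stand alone at -5.55 and -5.69, and the other points lie between -2.01 and 0.45 on both axes.

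By class, all 5 tested H1 genes lay below 0 in every line, with medians from -1.16 in U251MG (-0.50 without U251MG WWOX replicate 1) to -0.47 in U87MG, and 0 passed. Of these, H1-1 was at most 0.162 CPM in U251MG, below the floor, so its sign there is no measured change. In T98G H1-1 was at most 0.930 CPM. H2A genes lay below 0 in 11, 8, 11 and 12 of 12 in U87MG, T98G, U251MG and DBTRG-05MG, and H2B genes in 16, 12, 16 and 16 of 17. H3 genes did so in 10, 9, 9 and 10 of 10 and H4 genes in 10, 8, 9 and 10 of 11. By cluster, all 28 distal genes lay below 0 in U87MG and U251MG, 25 in T98G and 27 in DBTRG-05MG. These class and cluster counts take in genes that were below the floor in a line, among them H1-1 in U251MG and H4C6 in U87MG. Of the 5 tested 1q21 genes, all lay below 0 in U87MG, U251MG and DBTRG-05MG and 1 in T98G. H2AC25 and H2BC26 at 1q42 lay above 0 in U87MG. H4C12, which did not enter the test, was 1.34, 0.627 and 0.934 CPM in T98G Vec and had 0 tags in all T98G WWOX libraries, at least 4.14-fold lower against a floor of 3 tags per library. Its first 75 bases are those of H4C11, so tags cannot be assigned between them with certainty; H4C11 was 3.02, 2.005 and 3.66 CPM in T98G Vec and 6.04, 2.23 and 1.78 CPM in T98G WWOX, with overlap.

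Few genes that act on histone transcription or mRNA passed a test. Of 23 tested genes of histone gene transcription and 3′ end processing, 0 passed in any line, with medians between -0.14 and 0.04. SLBP, which binds the stem-loop, was 123, 192 and 195 CPM in U87MG Vec and 106, 132 and 114 CPM in U87MG WWOX (log2FC -0.57 ± 0.20, adjusted p = 0.181 by limma), and its log2FC lay between -0.14 and 0.03 in the other lines. NPAT, the S-phase coactivator of histone genes, had log2FC from -0.25 to 0.04, and CASP8AP2, known to act with NPAT at histone gene transcription, from -0.37 to 0.11; neither passed. MIF4GD, an SLBP partner in histone mRNA translation, was 36.0, 15.2 and 30.05 CPM in T98G Vec and 14.4, 7.20 and 11.03 CPM in T98G WWOX, without overlap, and its effect in T98G differed from the other lines by -1.78 ± 0.38 (adjusted p = 0.0193 by limma). That difference did not pass without T98G Vec replicate 1 or 3 or WWOX replicate 2 or 3 (adjusted p up to 0.12). PCNA, the replication clamp, had log2FC from -0.52 to -0.13 and did not pass. Of 18 tested histone chaperones, DAXX, the H3.3 chaperone, fell in the mean of the lines (log2FC -0.42 ± 0.10, adjusted p = 0.0374 by limma), a call lost in 17 of 24 fits that left out 1 library. Of 12 tested cell cycle inhibitors 0 passed.

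Among the replication-independent histone variants, which are made throughout the cell cycle, H2AJ fell in U87MG. This H2A variant was 314, 301 and 226 CPM in U87MG Vec and 70.9, 87.6 and 67.1 CPM in U87MG WWOX (log2FC -1.95 ± 0.52, adjusted p = 0.0366 by limma), a call that was lost whichever of these 6 libraries was left out (adjusted p up to 0.148). In DBTRG-05MG it was 138, 153 and 96.3 CPM in Vec and 263, 253 and 319 CPM in WWOX, without overlap in the other direction, and its effect differed between the lines (adjusted p = 0.0418 by limma, lost in 17 of 24 fits that left out 1 library). H4C16 starts 3274 bases from H2AJ on chromosome 12 on the opposite strand. It was 225, 313 and 238 CPM in U87MG Vec and 70.8, 136 and 85.4 CPM in U87MG WWOX, without overlap (log2FC -1.51 ± 0.43, adjusted p = 0.0584 by limma), and its libraries overlapped in DBTRG-05MG.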

How the data were processed

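CAGE-Seq libraries were made from random-primed total RNA by cap-trapping and read as 75-nt single ends. The authors mapped reads to hg38 with STAR and counted tags per gene with Rsamtools, per the study's methods; their gene annotation version is not given in the sources used here. The deposited values are CPM per gene and library. Every value was a whole number of tags at 0.01 tolerance, so tag numbers were recovered for the count tools.

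Identifiers were named with GENCODE 44 (43033 of 43037 matched). CPM were scaled by TMM factors (edgeR 4.0.16), 0.5 was added before log2, and 8 group means were fitted with limma 3.58.1 (trend; genes of at least 5 CPM in 1 library; 16 residual degrees of freedom; adjusted p under 0.05). Named genes were the 2 most abundant per class, the members passing a test (up to 3 rises and 3 falls a line, and all in the mean or F test), and 4 regulators. Members and lists were chosen with earlier results of these data known. Alternatives included edgeR and DESeq2 1.42.0 on recovered tags. The fits were tested on simulated data. P-values measure the spread between replicates of 1 population. A result of the gene lists is not reported here.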

Additional observations from a re-analysis of the deposited data

Results flagged for a closer look

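There were 3 genes that differed between the lines in the WWOX-versus-Vec contrast by the F test of a limma fit across all genes. H4C6 (adjusted p = 5.15e-05) rose in DBTRG-05MG, with a log2FC of 4.69, and did not pass in the other lines. H2BC12 (adjusted p = 7.79e-05) fell in T98G, with a log2FC of -5.55, and H2BC6 (adjusted p = 0.000278) fell in U87MG, with a log2FC of -5.26. In each case all 3 WWOX libraries lay apart from all 3 Vec libraries of that line. Each WWOX and Vec variant is 1 selected population, so an effect of WWOX and a property of that population cannot be told apart.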

How the results depend on the processing

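Leaving out 1 library at a time gave 2 to 6 genes in U87MG, 0 to 5 in U251MG, 5 to 17 in the mean of the lines and 3 to 5 by the F test of unequal effects; the last was 5 without U251MG WWOX replicate 1. With a separate model for each line 1 gene passed in U87MG and 0 in T98G. With edgeR on recovered tags 3 passed in U87MG, 3 in the mean and 4 in the difference of 1 line from the others. With DESeq2 1 passed in U251MG and 5 by the F test. Members were also centred on their median in each library, a setting chosen after the data were seen. The counts were then 3 in U87MG, 1 in U251MG (H2BC14, up) and 7 by the F test. In the difference of 1 line from the others 13 passed. H2BC14 was at 0.069 to 5.48 CPM in U251MG, and the centring offset of U251MG WWOX replicate 1 was -3.09 on the log2 scale. Its call there thus rests on values near the floor. The F test count also takes in H3C12, at most 3.02 CPM in U251MG. H4C13 in the mean turned to 0.0061 (adjusted p = 0.995 by limma). H2BC6 in U87MG and H4C6 in DBTRG-05MG passed under all 36 alternatives, and H2AC12 and H2BC12 in T98G under 35, missing only the separate model. H4C6 in the mean did not pass with edgeR, limma-voom, DESeq2 or a pseudocount of 0.1 (adjusted p 0.0679 to 0.99). The summed ratio in U87MG turned to 0.04 on the log2 scale without Vec replicate 2 and was -0.19 without WWOX replicate 1. Over the 6 U87MG libraries left out in turn, it ranged from -0.97 to 0.04.

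Same-numbered libraries deviated together in some cases, as T98G replicates 1 and 2 (correlation 0.43 and 0.51), and not in others (down to -0.55). With 3 libraries a group these correlations cannot decide whether the numbers pair the libraries, and the main fit did not pair them. With the replicate block 2 genes passed in U251MG (H3C13 and H3C1, down), and 7 in the mean. The cause of these shifts was not tested. With 3 libraries a group, the median SE over all tested genes was 0.32, and differences well above that size also missed. In U251MG the histone median of -1.38 came with 0 calls, and H4C16 in U87MG missed at -1.51. A gene that did not pass was therefore not shown to be unchanged.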
